A study of Mus musculus with 8 samples.

Results

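The 10 genes described here are genes by which liver sinusoidal endothelial cells are commonly recognised: *Stab2*, *Lyve1*, *Clec4g*, *Kdr*, *Flt1*, *Tek*, *Tie1*, *Eng*, *Pecam1* and *Cdh5*. They were taken by gene symbol from both expression tables of the series. All 10 were listed in both tables, out of 19382 genes listed in either. The series measured the RNA of C57BL/6 mouse cells exposed to vehicle or to auranofin, a gold compound used against rheumatoid arthritis, in 8 libraries that fall into 4 groups of 2. It asked how auranofin alters stellate cells and macrophages, both of which take part in liver fibrosis.

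The hepatic stellate cell (HSC) groups were activated HSCs from liver, left untreated per the labels or exposed for 12 h to 0.03 µM auranofin. The untreated libraries are called vehicle here, as in the study. The bone marrow-derived macrophage (BMDM) groups all received ATP (1 mM) on top of LPS (100 ng/ml), without or with auranofin at 0.1 µM per the labels. The labels and the study's text, which has 0.3 µM and 1 h, differ on this concentration, so it is uncertain. Per the study's methods, the HSCs were collected from nonparenchymal liver cells at a density-gradient interface, with no sort by surface marker described. The macrophages were grown for 7 days with M-CSF from the marrow of 8-week-old mice. Nothing in the labels says that the 2 libraries of a group came from separate cultures or animals, so p-values measure the spread between these libraries, which may be technical.

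Sinusoidal endothelial cells line the liver's capillaries. They lack a basement membrane, are perforated by fenestrae, and clear hyaluronan, modified proteins and immune complexes from the blood through scavenger receptors and lectins. VEGF from hepatocytes and stellate cells, angiopoietins, and the circulating BMP9 and BMP10 act on their VEGF receptors, TIE receptors and endoglin, and junction proteins join them to their neighbours. In chronic injury these cells lose their fenestrae and gain features of ordinary capillary endothelium, a change known as capillarisation.

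The cultures labelled activated HSCs held transcripts of several cell types. Of 15 stellate and myofibroblast markers all 15 had a mean of at least 1 FPKM (fragments per kilobase of transcript, scaled to the total of the library, which is a level per length), with *Acta2* at 960.5 and *Col1a1* at 1038 FPKM in the vehicle libraries. Of 15 macrophage and Kupffer cell markers 14 did so too, and the macrophage lysozyme gene *Lyz2* stood at 5536 FPKM, beside 3684 FPKM in vehicle BMDM. No hepatocyte marker reached that minimum, and their summed level stayed between 0.888 and 2.34 FPKM. All 10 sinusoidal endothelial genes reached it, with a summed level of 382 to 399 FPKM in the vehicle libraries and 368 to 389 FPKM with auranofin. *Eng* alone had a mean of 177.4 FPKM in the vehicle libraries, and it had 56.1 FPKM in vehicle BMDM. The sum thus need not come from endothelial cells alone. In such bulk RNA, fewer cells of a type and less RNA per cell cannot be told apart. No unit of the tables gives depth, and an estimate from the steps of low values put the libraries at about 27500000 to 39600000 fragments. In that estimate only 49.1 to 59.7% of the low values came within 0.1 of a whole fragment, so it is rough. Of the 4 BMDM libraries, auranofin replicate 1 stood apart: between 368 and 383 of 4245 genes at 10 FPKM or more differed at least 2-fold between it and each other library, against 12 to 15 between the rest. The 6 pairs of HSC libraries differed in this way at 13 to 35 of 6430 genes.

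The promoter sequences of *Stab2* and *Clec4g*, the members whose RNA was lower with auranofin in the HSC cultures, and of *Tie1*, whose RNA was not called, are shown for what lies just upstream of each. They come from RefSeq promoter windows of build GRCm38.p6, which held 7 of the 10 genes (not *Lyve1*, *Pecam1* or *Cdh5*), and are given 5′ to 3′ on the gene's own strand, here always the minus strand. Only bases outside the annotated gene are printed. These are 154 bases of *Stab2* at chr10:87008039-87008192, 206 bases of *Clec4g* at chr8:3720696-3720901 and 250 bases of *Tie1* at chr4:118489850-118490099. Capitals mark AGGAAG, a form of the ETS factor motif, on either strand.
Stab2: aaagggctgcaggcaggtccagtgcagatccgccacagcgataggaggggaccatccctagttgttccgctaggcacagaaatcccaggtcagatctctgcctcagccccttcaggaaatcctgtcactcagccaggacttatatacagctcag
Clec4g: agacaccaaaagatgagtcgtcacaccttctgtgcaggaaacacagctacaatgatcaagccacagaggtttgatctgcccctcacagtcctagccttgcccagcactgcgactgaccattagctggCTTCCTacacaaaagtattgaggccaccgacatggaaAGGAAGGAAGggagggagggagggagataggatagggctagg
Tie1: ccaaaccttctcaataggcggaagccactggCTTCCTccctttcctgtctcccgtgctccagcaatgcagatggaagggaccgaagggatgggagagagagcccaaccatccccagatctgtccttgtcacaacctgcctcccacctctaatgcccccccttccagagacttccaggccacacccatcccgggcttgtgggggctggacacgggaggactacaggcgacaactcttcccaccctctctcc

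The printed stretch of *Clec4g* held 3 such matches, of which 2 overlap each other, and that of *Tie1* held 1. The printed stretch of *Stab2* held none, while the rest of its 250-base window, inside the annotated gene, held 1. Over the 250 bases before the start, this motif was present in 5 of the 7 members' windows (also *Eng* and *Flt1*) and in 29.5% of all 32851 windows. The KLF motif CCACCC was likewise present in 5 of 7, against 28.1% of all windows. The antioxidant response element TGACNNNGC was found in *Kdr* alone among the 7, against 10.2% of windows. The windows of *Flt1* and *Kdr* lie wholly inside the annotated genes, and that of *Tek* has only 47 bases outside its gene. No member's window held the GATA motif AGATAA, which 9.99% of windows hold, or the E-box CACGTG, which 6.02% hold. Of the other motifs searched, on both strands, the short ETS core GGAA was in 7 of 7 members and 93.4% of windows, which includes every AGGAAG match. The SOX motif ACAAAG was in 2 and 16.5%, its other form AACAAT in 1 and 9.42%, the FOX motif TGTTTAC in 0 and 3.17%, and TATAAA in 2 and 12.4%. A match is a description of the letters and not a site of binding.

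In vehicle HSC cultures the 10 genes spanned more than 100-fold in level. Endoglin (*Eng*) was highest at 177.4 ± 6.85 FPKM (mean ± SD, n = 2 here and below), followed by *Cdh5* at 69.9 ± 2.68, *Pecam1* at 45.1 ± 2.47 and *Tie1* at 24.5 ± 0.938 FPKM. The hyaluronan receptor and lectin genes came next, with *Stab2* at 21.1 ± 0.614, *Clec4g* at 20.3 ± 0.146 and *Lyve1* at 14.6 ± 0.0651 FPKM. The VEGF receptor *Kdr* stood at 12.5 ± 0.526, *Tek* at 3.58 ± 0.0652 and *Flt1* lowest at 1.36 ± 0.228 FPKM. No neighbours in this order overlapped between their vehicle libraries. With auranofin the order of the means was the same, but the libraries of *Clec4g*, *Lyve1* and *Kdr*, with means of 14.7, 14.2 and 14.1 FPKM, overlapped, so that the order of these 3 was not beyond their spread.

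**Figure D1:**
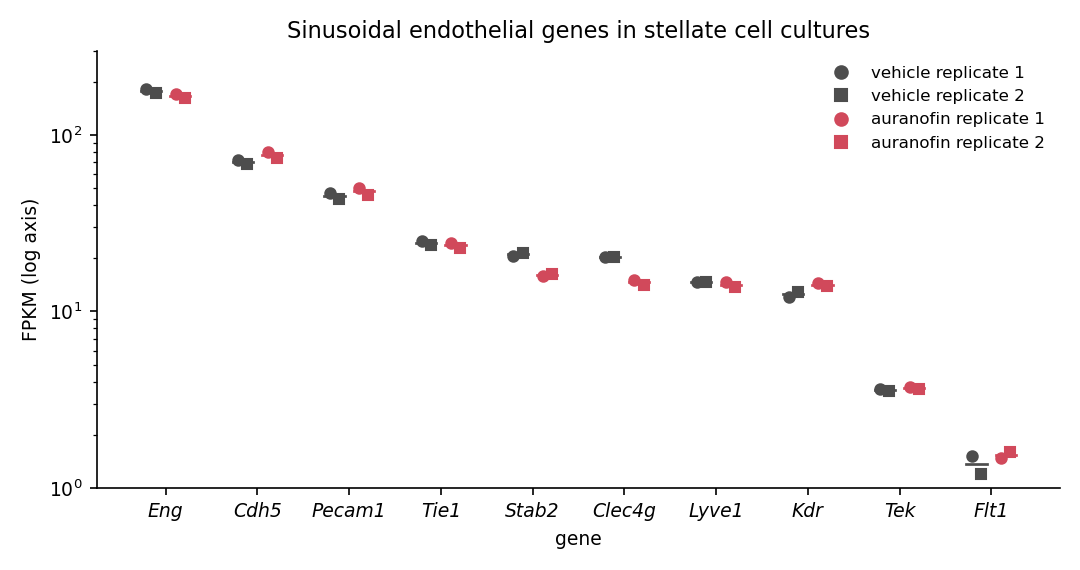
Level of each gene in the 4 HSC cultures, in FPKM on a log axis, with 1 point per library and a bar at each group's mean. The auranofin points of *Stab2* and *Clec4g* lie below both vehicle points, and those of *Eng* lie slightly below. Those of *Kdr* and *Cdh5* lie slightly above, and *Eng* is highest throughout.

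Among the 10 genes in the HSC cultures, *Stab2* and *Clec4g* fell with auranofin, and none rose, by limma on log2(FPKM + 1) with a Benjamini-Hochberg adjusted p under 0.05 over all genes tested. That is 2 of 10, where 2.33% of the 12149 genes tested passed (283 genes). The members were chosen with earlier results of these data known, so this share cannot be read as an excess. No member passed the second rule, a change of at least 1.5-fold with an unadjusted p under 0.05, which 0.576% of genes passed (70 genes). The auranofin libraries lay outside the range of both vehicle libraries for 5 members, and for 50.1% of all genes, so that this count was at the background. An unadjusted p under 0.05 in limma was reached by 4 members, beside 2161 of the 12149 genes tested. The members' median log2 fold change was -0.01, and that of all genes 0.00. An exact permutation test on a single gene cannot go below p = 0.333 with 2 libraries against 2.

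Of the hyaluronan receptors and the lectin, *Stab2* and *Clec4g* passed the test and *Lyve1* did not. *Stab2* (gene ID 192188, chr10:86841194-87008038), which encodes stabilin-2, the hyaluronan-clearing scavenger receptor, measured 20.7 and 21.5 FPKM with vehicle, against 15.9 and 16.3 FPKM with auranofin. Both auranofin libraries were lower than both vehicle libraries, and their mean was 0.762 times the vehicle mean. The log2 fold change was -0.37 (SE 0.043, 95% interval -0.48 to -0.27), with an adjusted p of 0.0169 in limma.

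*Clec4g* (gene ID 75863, chr8:3707066-3720695) encodes a C-type lectin of sinusoidal endothelium, also called LSECtin. It measured 20.2 and 20.4 FPKM with vehicle against 15.2 and 14.2 FPKM with auranofin. The groups did not overlap here either, and the ratio of the means was 0.722. The log2 fold change was -0.44 (SE 0.047, 95% interval -0.56 to -0.33, limma adjusted p = 0.0130). Without the minimum of 1 FPKM for testing, neither gene passed (adjusted p = 0.0660 for *Stab2* and 0.0632 for *Clec4g*), and without auranofin replicate 1 *Stab2* did not pass (0.0591).

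*Lyve1* (gene ID 114332, chr7:110850607-110862953), a hyaluronan receptor that lymphatic endothelium and some macrophages also express, measured 14.6 and 14.7 FPKM with vehicle, against 14.7 and 13.7 FPKM with auranofin. The groups overlapped. The log2 fold change was -0.04 (95% interval -0.16 to 0.08, limma adjusted p = 0.700), an interval that does not reach that of *Stab2*. Behind these values stood an estimated 3880 to 5881 fragments per library for *Stab2*, 1263 to 1566 for *Lyve1* and 559 to 842 for *Clec4g*.

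The VEGF receptors showed no change past the adjusted threshold. *Kdr* (gene ID 16542, chr5:75932827-75979072), the main signalling receptor for VEGF-A in endothelium, measured 12.1 and 12.8 FPKM with vehicle, against 14.4 and 13.9 FPKM with auranofin. Both auranofin libraries were above both vehicle libraries, but the log2 fold change of 0.17 (SE 0.049, 95% interval 0.05 to 0.29, unadjusted p = 0.0152 in limma) had an adjusted p of 0.166. *Flt1* (gene ID 14254, chr5:147561604-147726438), which binds VEGF-A tightly and signals weakly, measured 1.52 and 1.20 FPKM with vehicle, against 1.47 and 1.60 FPKM with auranofin. These values overlapped, at an estimated 275 to 436 fragments per library (log2 fold change 0.11, 95% interval -0.13 to 0.34, limma adjusted p = 0.621).

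The receptors of the angiopoietin system had no call. *Tek* (gene ID 21687, chr4:94739086-94874976), the angiopoietin receptor TIE2, measured 3.63 and 3.54 FPKM with vehicle, against 3.71 and 3.62 FPKM with auranofin (log2 fold change 0.03, 95% interval -0.12 to 0.17, limma adjusted p = 0.863). *Tie1* (gene ID 21846, chr4:118471191-118489849), the partner receptor of TIE2, measured 25.1 and 23.8 FPKM with vehicle, against 24.4 and 22.9 FPKM with auranofin (log2 fold change -0.05, 95% interval -0.17 to 0.08, limma adjusted p = 0.669). For both genes 1 auranofin library lay within the vehicle range.

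*Eng* (gene ID 13805, chr2:32646595-32682669) encodes endoglin, the co-receptor through which BMP9 and BMP10 act on endothelium, which activated macrophages and stellate cells also carry. It measured 182 and 173 FPKM with vehicle, against 169.9 and 162 FPKM with auranofin. The groups did not overlap, while the log2 fold change of -0.10 (95% interval -0.20 to 0.01) had a limma adjusted p of 0.324.

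The junction genes had small positive log2 fold changes that did not pass. *Cdh5* (gene ID 12562, chr8:104101613-104144504), which encodes VE-cadherin, measured 71.8 and 68.0 FPKM with vehicle, against 79.7 and 74.2 FPKM with auranofin. The groups did not overlap (log2 fold change 0.14, SE 0.049, 95% interval 0.01 to 0.26, unadjusted p = 0.0345, adjusted p = 0.240 in limma). *Pecam1* (gene ID 18613, chr11:106654213-106715281), the adhesion molecule CD31 of endothelium, platelets and some leukocytes, measured 46.9 and 43.4 FPKM with vehicle, against 50.0 and 45.7 FPKM with auranofin, with overlap (log2 fold change 0.08, 95% interval -0.06 to 0.23, adjusted p = 0.522). Spans are those of RefSeq on GRCm38.p6, the assembly that mm10 carries. Those of *Stab2*, *Clec4g*, *Kdr*, *Flt1* and *Cdh5* overlap a non-coding gene or pseudogene, and that of *Eng* overlaps *Fpgs*. The library kit keeps strand, but whether strand was used in quantification is not given in the sources used here.

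**Figure D2:**
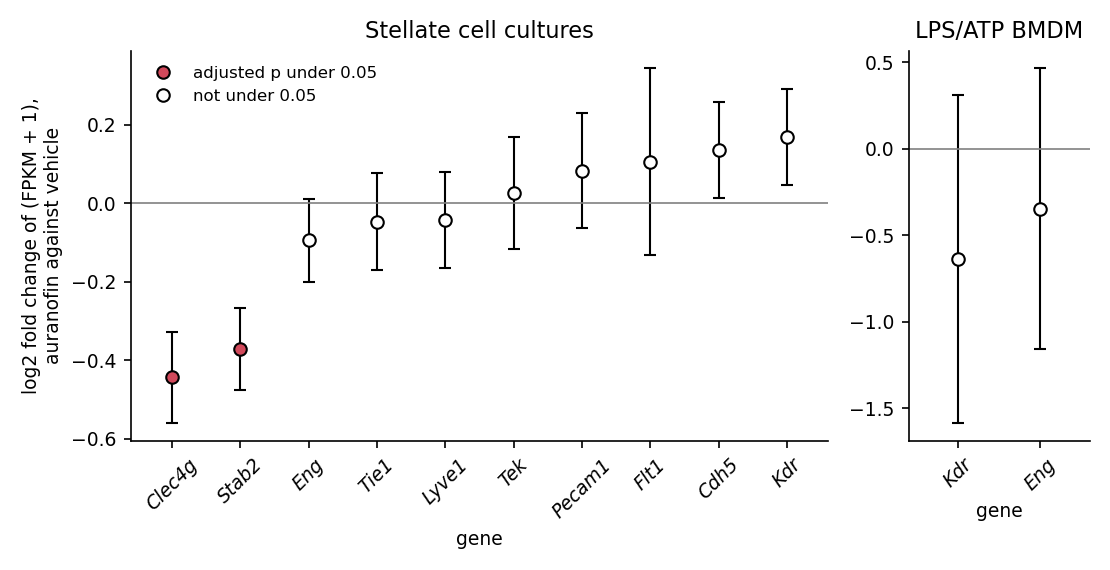
Log2 fold change of FPKM + 1, auranofin against vehicle, for the members tested in HSC cultures (left) and LPS/ATP-treated BMDM (right), with 95% intervals from limma and filled points for an adjusted p under 0.05. Only *Clec4g* (-0.44) and *Stab2* (-0.37) are filled, and the BMDM intervals of *Kdr* and *Eng* are wide and include 0.

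Set against *Cdh5* in the same library, a ratio chosen after the values were seen and given without a test, *Stab2* measured 0.288 and 0.316 with vehicle and 0.199 and 0.219 with auranofin. *Clec4g* measured 0.281 and 0.30 of the *Cdh5* level with vehicle and 0.190 and 0.191 with auranofin. Most members shared this direction, as *Cdh5* itself was higher in both auranofin libraries. *Eng* measured 2.54 and 2.54 of the *Cdh5* level with vehicle and 2.13 and 2.18 with auranofin, and *Tie1* 0.350 and 0.350 against 0.306 and 0.309. *Lyve1* measured 0.203 and 0.216 against 0.184 and 0.184, *Tek* 0.0505 and 0.0520 against 0.0465 and 0.0488, and *Pecam1* 0.652 and 0.638 against 0.627 and 0.616. The ratios of *Kdr* (0.169 and 0.189 against 0.181 and 0.187) and *Flt1* (0.0212 and 0.0176 against 0.0185 and 0.0215) overlapped between the groups.

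A few marker genes of other cell types also differed between the HSC groups by adjusted p, which 2.33% of all genes tested passed. The 15 stellate and myofibroblast markers summed to 4769 and 4842 FPKM with vehicle and to 4202 and 4267 FPKM with auranofin, and 1 of them, *Acta2*, fell (log2 fold change -0.38, limma adjusted p = 0.00719). The 15 macrophage and Kupffer markers summed to 10832 to 11008 FPKM with vehicle, against 10752 to 10823 FPKM with auranofin, and 1 of 14 tested, *Clec4f*, rose (0.27, adjusted p = 0.0395). Of 6 tested cholangiocyte and mesothelial markers 1 fell, *Msln* (-0.41, adjusted p = 0.0434), and the sums over all 8 listed were 528 to 664 FPKM with vehicle, against 501 to 568 FPKM with auranofin. The 5 lymphatic endothelial markers tested, *Lyve1* and *Flt4* among them, had no call in either direction and summed to 88.4 to 89.8 FPKM with vehicle, against 81.2 to 82.5 FPKM with auranofin. Nor had the 3 megakaryocyte markers tested, and all 5 that were listed summed to 30.6 to 34.3 FPKM with vehicle and 31.4 to 34.2 FPKM with auranofin, while lymphocyte markers summed to at most 0.389 FPKM in any library. The part of these cell types in the values of *Stab2* and *Clec4g* was not tested. In vehicle HSC cultures the highest single cholangiocyte or mesothelial marker had a mean of 411 FPKM. The highest lymphatic marker had 51.9 FPKM and the highest megakaryocyte marker 29.7 FPKM. In vehicle BMDM the highest single markers of these lists had 4626, 62.9 and 172 FPKM, in the same order. Much of each sum thus came from 1 gene, and it need not come from the cell types named.

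Other endothelial genes were read from 5 lists of ligands, co-receptors and junction partners, transcription factors, sinusoidal genes and pan-endothelial genes. Of 114 such genes 108 were listed in the HSC table and 100 were tested. By adjusted p, 4 rose and 7 fell, which is 11% of those tested beside 2.33% of all genes, and their median log2 fold change was 0.00, as over all genes. With no minimum FPKM 1 of them passed (49 of all genes), and without a variance trend 2 did (129 of all genes), so the calls named below rest on these settings. Without auranofin replicate 1, 5 passed (179 of all genes), and without vehicle replicate 1, 20 did (517 of all genes). By the 1.5-fold rule 2 passed, *Apln* and *Procr*, both higher. For 65% of them the auranofin libraries lay outside the vehicle range, beside 50.1% of all genes. As the lists were chosen with earlier results of these data known, neither the 11% nor the 65% can be read as an excess.

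The ligand list held 3 of the genes that fell and none that rose, among 12 tested, with a median of -0.14. It was drawn up for the member receptors but is wider than their own ligands. It holds the hyaluronan synthase gene *Has2*, and *Flt4*, the main receptor of *Vegfd* in mice, is not a member. *Vegfd*, a VEGF family ligand that in mice acts mainly through *Flt4*, measured 29.2 and 29.0 FPKM with vehicle, against 21.1 and 19.4 FPKM with auranofin (log2 fold change -0.51, limma adjusted p = 0.0113). *Bmp10*, a ligand of the endoglin receptor complex, measured 9.52 and 9.95 against 7.56 and 6.99 FPKM (-0.38, adjusted p = 0.0369). *Inhba*, which encodes an activin subunit, measured 17.0 and 16.2 against 13.3 and 12.8 FPKM (-0.33, adjusted p = 0.0337). For all 3 the groups did not overlap. Of the most abundant ligands, *Tgfb1* had 75.9 FPKM with vehicle, against 74.3 with auranofin, *Tgfb3* 42.9 and 37.3, and *Vegfb* 32.7 and 34.8 FPKM, and none of these passed (adjusted p = 0.700, 0.0693 and 0.40).

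None of the 17 co-receptors and junction partners passed in either direction by limma's adjusted p, and their median was 0.00. An unadjusted p under 0.05 was reached by 2 of them, beside 2161 of the 12149 genes tested. The catenins and junction molecules that were highest were *Ctnnb1* at 229 FPKM with vehicle, against 242 FPKM with auranofin, *Ctnna1* at 101 and 105 FPKM, and *F11r* at 71.5 and 75.2 FPKM. *Ctnnb1* encodes β-catenin, which binds the tail of VE-cadherin. The 17 transcription factors tested also held no call, with 4 at an unadjusted p under 0.05 and a median of 0.04. *Lmo2*, a partner of TAL1 in blood and endothelial cells, measured 48.7 FPKM with vehicle, against 41.8 FPKM with auranofin (adjusted p = 0.0593). *Maf* measured 26.4 and 25.3 FPKM, and *Gata4*, which specifies sinusoidal endothelium and is also a stellate cell factor, 19.5 and 21.8 FPKM.

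Among 23 other sinusoidal genes tested, 3 fell and 1 rose, with a median of -0.02. The water channel gene *Aqp1* measured 56.6 and 58.8 FPKM with vehicle, against 41.5 and 41.0 FPKM with auranofin (log2 fold change -0.47, limma adjusted p = 0.00606). *Mrc1*, the mannose receptor, measured 88.9 and 86.3 against 69.5 and 74.2 FPKM (-0.28, adjusted p = 0.0395). *Fcgr2b*, an inhibitory Fc receptor, measured 82.4 and 82.6 against 70.9 and 70.1 FPKM (-0.22, adjusted p = 0.0337). Both *Mrc1* and *Fcgr2b* are also macrophage genes, and vehicle BMDM held 56.6 and 89.4 FPKM of them.

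The fatty acid and scavenger receptor gene *Cd36* rose, from 207 and 197 FPKM to 234 and 242 FPKM (0.24, adjusted p = 0.0464), and it too was abundant in BMDM at 264 FPKM. *Il6st*, the gp130 cytokine receptor chain, measured 106 FPKM with vehicle, against 91.3 FPKM with auranofin (adjusted p = 0.0551). *Plvap*, a fenestral diaphragm protein, measured 90.2 and 87.1 FPKM, and did not pass.

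The pan-endothelial genes held 3 that rose and 1 that fell among 34 tested, with a median of 0.03. *Apln*, which encodes the peptide apelin, measured 7.22 and 5.42 FPKM with vehicle, against 16.6 and 12.3 FPKM with auranofin (log2 fold change 1.07, SE 0.16, limma adjusted p = 0.0395). *Procr*, the endothelial protein C receptor gene, measured 34.4 and 30.0 against 56.3 and 49.1 FPKM (0.69, SE 0.087, adjusted p = 0.0228). *Cd93*, an endothelial and myeloid surface glycoprotein gene, measured 30.0 and 29.8 against 37.1 and 35.4 FPKM (0.27, adjusted p = 0.0362). *Cav1*, which encodes the caveolar coat protein, fell from 56.9 and 54.8 to 45.8 and 43.2 FPKM (-0.32, adjusted p = 0.0278). *Thbd*, thrombomodulin, at 78.9 and 80.6 FPKM, and *Egfl7*, a secreted endothelial protein gene, at 68.8 and 72.4 FPKM, were the most abundant and did not pass.

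**Figure D3:**
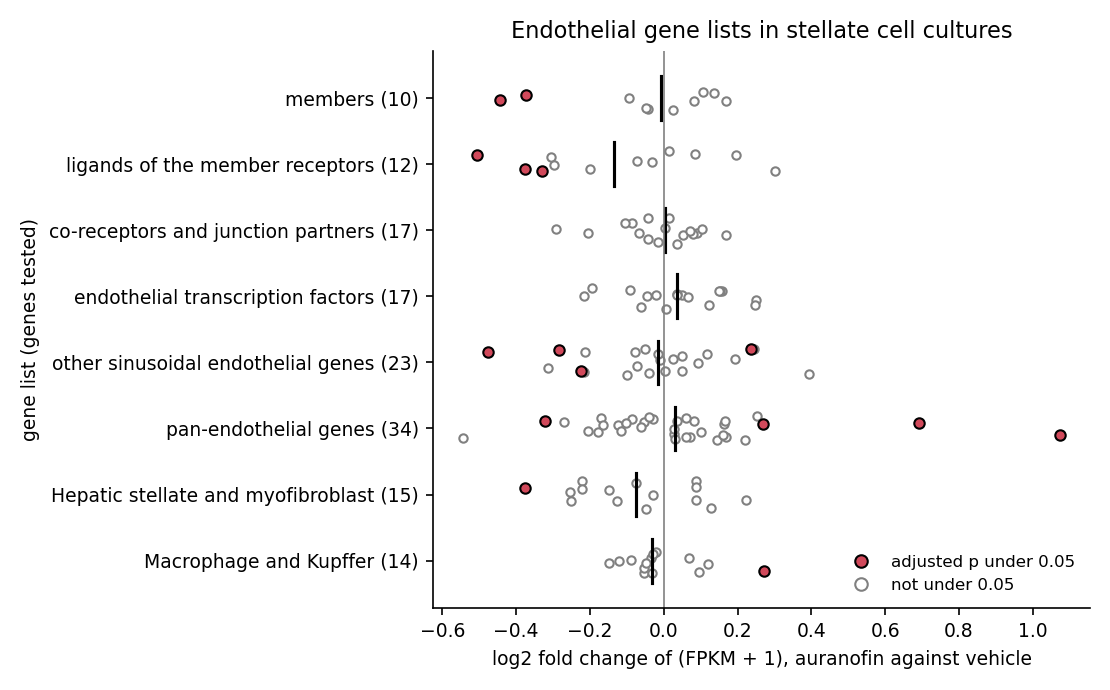
Log2 fold change of FPKM + 1 in HSC cultures, auranofin against vehicle, for every tested gene of the members, the 5 endothelial lists and the stellate and macrophage markers, with filled points for a limma adjusted p under 0.05 and a bar at each list's median. Most points of each list lie near 0, the ligand list's median is at -0.14, and *Apln* at 1.07 lies farthest to the right.

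In LPS/ATP-treated BMDM, *Eng* and *Kdr* were the only members with a mean of at least 1 FPKM, and neither passed a test. In vehicle BMDM *Eng* stood at 56.1 ± 2.08 FPKM and *Kdr* at 12.2 ± 0.168 FPKM. *Flt1* at 0.981 ± 0.0573, *Stab2* at 0.487 ± 0.00257, *Cdh5* at 0.406 ± 0.00397 and *Pecam1* at 0.342 ± 0.0119 FPKM followed, and no neighbours among these 6 overlapped. *Clec4g*, *Lyve1* and *Tie1* followed with overlapping values of at most 0.0541 FPKM, and *Tek* was listed at 0 in both vehicle libraries. With auranofin the means of these leading 6 kept that order, but *Flt1* overlapped *Stab2* and *Cdh5* overlapped *Pecam1*.

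*Kdr* in BMDM measured 12.3 and 12.04 FPKM without auranofin, against 5.16 and 10.6 FPKM with it. Both auranofin libraries were below both vehicle libraries, with most of the distance in replicate 1, the library that stood apart. The log2 fold change was -0.64 (SE 0.34, 95% interval -1.58 to 0.31, limma adjusted p = 0.721). Leaving out auranofin replicate 1 gave -0.18, and leaving out replicate 2 gave -1.09. An estimated 1067 to 2181 fragments per library stood behind these values.

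Endoglin (*Eng*) measured 54.6 and 57.5 FPKM with vehicle, against 33.3 and 57.7 FPKM with auranofin. The vehicle libraries lay between the auranofin ones. Its log2 fold change was -0.35 (SE 0.29, 95% interval -1.16 to 0.47, adjusted p = 0.721 in limma), and it changed sign to 0.040 without auranofin replicate 1. Neither gene was called by adjusted p, which 0.0108% of the 9232 genes tested were (1 gene), or by the 1.5-fold rule, which 0.152% were (14 genes). Neither had an unadjusted p under 0.05, which 49 genes had. The auranofin libraries lay outside the vehicle range for 1 of the 2 tested members and for 38.8% of all genes.

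The remaining 8 members were too low for the test. *Flt1* measured 1.02 and 0.940 FPKM with vehicle, against 0.513 and 0.930 FPKM with auranofin, again with replicate 1 lowest. *Stab2* had 0.486 and 0.489 against 0.687 and 0.422 FPKM, with replicate 1 highest. *Cdh5* had 0.403 and 0.409 against 0.288 and 0.363 FPKM, and *Pecam1* 0.351 and 0.334 against 0.190 and 0.391 FPKM. These values rest on an estimated 111 to 197 fragments per library for *Stab2* and 40.1 to 50.2 for *Cdh5*.

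*Lyve1* was listed at 0 in vehicle replicate 1 and at 0.0220 to 0.0408 FPKM in the other 3 BMDM libraries, an estimated 2.20 to 3.25 fragments. *Tie1* reached at most 0.0173 FPKM, and was listed at 0 in auranofin replicate 1. *Clec4g* was at 0.0541 FPKM in vehicle replicate 1, an estimated 2.0 fragments, and at 0 in the other 3 libraries, where a count of 0 allows up to 0.0692 to 0.0878 FPKM (3 fragments, counting error only). *Tek* was at 0.0122 FPKM in auranofin replicate 1 and at 0 elsewhere. At this depth no difference between the groups was detectable for these 4 genes.

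**Figure D4:**
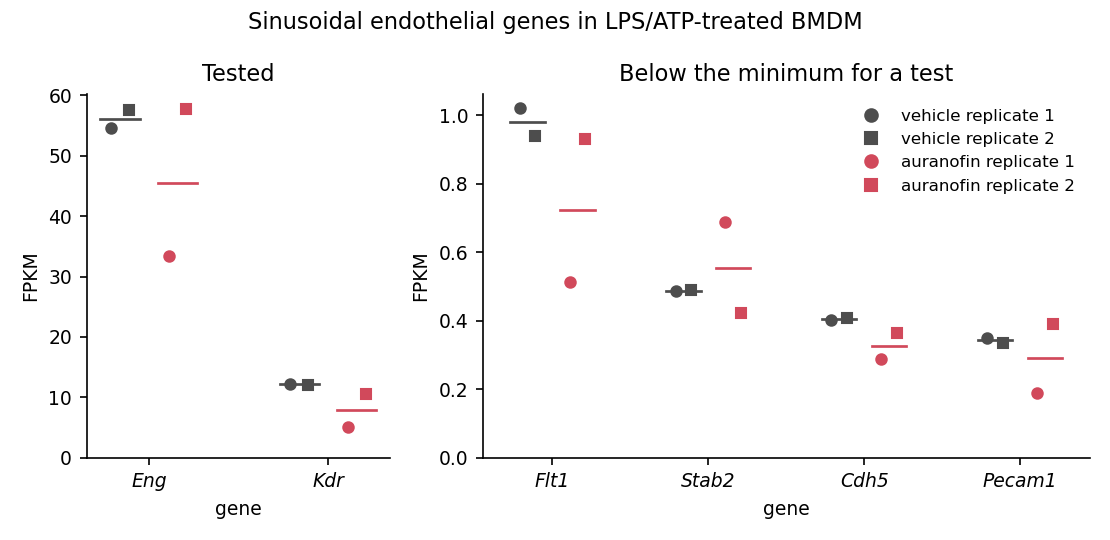
Level in FPKM of the members in LPS/ATP-treated BMDM, for the 2 genes tested (left) and the 4 next highest, which were below the minimum for a test (right), with 1 point per library, a bar at each group's mean, and different scales in the panels. Auranofin replicate 1 lies below the other 3 libraries for *Eng*, *Kdr*, *Flt1*, *Cdh5* and *Pecam1*, and above them for *Stab2*.

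Levels in the 2 tables are set side by side without a test, since the tables may have been normalised apart and the cells differ in origin and stimulus. *Kdr* was at about the same level in vehicle HSC cultures and vehicle BMDM, at 12.5 and 12.2 FPKM, and *Flt1* at 1.36 and 0.981 FPKM. *Eng* was 3.16 times higher in the HSC cultures. The scavenger receptor *Stab2* was 43.3 times, *Pecam1* 132 times and *Cdh5* 172 times higher there, and *Lyve1*, *Clec4g*, *Tek* and *Tie1* were at or near 0 in BMDM. What part of the *Kdr*, *Flt1* and *Eng* transcripts in the HSC cultures came from the macrophages there was not tested.

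Of the 114 other endothelial genes 100 were listed in the BMDM table, 41 were tested and none passed by adjusted p or the 1.5-fold rule, and none had an unadjusted p under 0.05 in limma. Their auranofin libraries lay outside the vehicle range for 34.1%, beside 38.8% of all genes, with a median log2 fold change of 0.06 beside 0.09 over all genes. Without auranofin replicate 2, leaving the library that stood apart alone against both vehicle libraries, 33 of them passed, as did 6051 of all genes. The pan-endothelial genes *Nos3*, *Emcn* and *Shank3* were listed at 0 in all 4 BMDM libraries. The stellate and myofibroblast markers summed to at most 18.3 FPKM in any BMDM library, and the macrophage markers to 9952 to 10542 FPKM.

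The endothelial-list genes that BMDM expressed most include several known from macrophages. The ligand genes *Tgfb1* (81.8 FPKM with vehicle, 92.1 FPKM with auranofin), *Inhba* (34.1 and 28.6 FPKM) and *Vegfb* (5.78 and 6.53 FPKM) led their list. Among co-receptors, *Nrp2*, a neuropilin that binds VEGF family ligands, measured 203 and 205 FPKM with vehicle, against 120 and 187 FPKM with auranofin, and *Ctnnb1* and *Ctnna1* had 61.7 and 47.8 FPKM with vehicle. The transcription factor *Maf* measured 64.5 and 66.8 FPKM against 21.1 and 62.8 FPKM, *Lmo2* had 56.5 FPKM and *Klf4* 17.8 FPKM with vehicle.

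Of the sinusoidal list, *Cd36* had 264 and 303 FPKM, *Fcgr2b* 89.4 and 60.0 FPKM and *Mrc1* 56.6 and 56.6 FPKM with vehicle and auranofin. *Procr* measured 53.0 and 54.1 FPKM with vehicle, against 317 and 66.9 FPKM with auranofin, a spread between the auranofin libraries that left its log2 fold change of 1.43 at an adjusted p of 0.721 in limma. *Calcrl*, the adrenomedullin receptor gene, had 38.1 and 34.5 FPKM and *Cd93* 27.0 and 20.9 FPKM.

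The genes whose levels over all 8 libraries were most like each member's were found by Euclidean distance of log2(FPKM + 1) among 16661 genes listed in both tables. This distance follows mainly the level in each cell type. Nearest to *Stab2* were *Fbln5* (distance 0.221) and *Lss* (0.272), and nearest to *Clec4g* were *Cdh3* (0.159) and *Itga1* (0.205). *Fbln5* had means of 20.9 FPKM with vehicle, against 15.8 FPKM with auranofin in the HSC cultures, and 0.487 and 0.478 FPKM in BMDM. *Cdh3* had 19.5 and 14.4 FPKM in the HSC cultures. For the other hyaluronan receptor gene, *Lyve1*, the nearest were *Shisa2* (0.0831) and *Khdrbs3* (0.0949).

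Among the TIE receptors, *Tek* was near *Efna4* (0.0553) and *Smad9* (0.0687), and *Tie1*, near *Klhl13* (0.103) and *Gata6* (0.107). *Kdr*, present in both cell types, was near *Pofut1* (0.299) and *Llgl1* (0.467), and *Flt1* near *Zbtb37* (0.242) and *Adck3* (0.324). *Eng* was near *Actn1* (0.460) and *Acp5* (0.576), *Pecam1* near *Cyp1b1* (0.211) and *Col4a5* (0.266), and *Cdh5* near *Mxra8* (0.306) and *Fads2* (0.452).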

How the data were processed

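RNA sequencing of 8 mouse libraries was deposited as 2 tables of FPKM, which the authors made for HSCs and BMDM separately from stranded mRNA libraries. The submitters' processing notes name CASAVA, FastQC 0.11.7, Trimmomatic 0.38, HISAT2 2.1.0, StringTie 1.3.4d and mm10; the annotation is not given in the sources used here. Deposited FPKM values are normalised for transcript length and total fragments, so counts were not used.

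Each table was fitted alone with limma 3.58.1 (R 4.3.3, empirical Bayes with a variance trend, two-sided) on log2(FPKM + 1), keeping genes that averaged 1 FPKM or more over its 4 libraries (12149 in HSCs, 9232 in BMDM). P-values were Benjamini-Hochberg adjusted over all genes tested. Fold changes on this scale understate those of low genes. Genes were called at an adjusted p under 0.05 and, separately, at 1.5-fold with an unadjusted p under 0.05. The script was tested on simulated data. Fragments were estimated from the steps of low FPKM values and GENCODE M21 transcript lengths of genes with 1 transcript, so none are given for *Tek*, *Eng* and *Pecam1*. Intervals are at 95%.

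The members and gene lists were chosen with earlier results of these data known. Named with values are the members, list genes called by either rule, the 3 genes of each endothelial list highest in vehicle libraries, and the 2 genes nearest to each member. Alternatives were a pseudocount of 0.1, no minimum or one of 5 FPKM, median centring, quantile normalization, no variance trend, a replicate block, and leaving out each library.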

Additional observations from a re-analysis of the deposited data

Results flagged for a closer look

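Every auranofin library of *Kdr* moved up in the HSC cultures and down in BMDM: the ratio of the auranofin to the vehicle mean FPKM was 1.13 in HSC cultures and 0.650 in BMDM. The same held for *Cdh5*, at 1.10 in HSC cultures and 0.802 in BMDM, where *Cdh5* lay below the minimum for a test. These differences between the cell types were not tested, since each table was normalised apart and the dose, exposure time and stimulus differed. In BMDM most of the distance lay in auranofin replicate 1, where *Kdr* was 0.425 times and *Cdh5* 0.709 times the vehicle mean, beside 0.875 and 0.894 in auranofin replicate 2. No test for an outlying value was run within groups of 2 libraries. *Cdh5* in BMDM rested on an estimated 47.8 and 44.9 fragments with vehicle, against 40.1 and 50.2 with auranofin, which overlap. The auranofin libraries lay outside the vehicle range for 50.1% of all genes tested in HSC cultures and 38.8% in BMDM. These shares count either direction within each cell type, and the BMDM share leaves out *Cdh5*, which was not tested there. How many of all genes lay outside the vehicle range in opposite directions was not counted. No background share therefore stands beside *Kdr* and *Cdh5*.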

How the results depend on the processing

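In HSC cultures, 70 genes passed the 1.5-fold rule and 124 with a pseudocount of 0.1; 283 passed by adjusted p, 49 with no minimum FPKM and 129 without a variance trend. Calls among the 10 members went from 2 to 0, and among the other endothelial genes from 11 to 1, with no minimum, and the latter to 2 without a trend. In BMDM, 14 genes passed the 1.5-fold rule, against 27 with a pseudocount of 0.1, 22 with no minimum, 8 with a minimum of 5 FPKM and 42 with the replicate block. There 1 gene passed by adjusted p, against 0 with no minimum, 0 with quantile normalization and 2 without a trend. Leaving out each library in turn gave, in HSC cultures, 107 to 139 genes by the 1.5-fold rule, 179 to 517 by adjusted p, 1 to 2 members and 5 to 20 other endothelial genes. In BMDM it gave 14 to 2146, 1 to 6051, 0 to 2 and 0 to 33, the highest of each without auranofin replicate 2; the lone library is assumed to vary like the other group. Without auranofin replicate 1, BMDM gave 15 genes by adjusted p. Direction reversed for *Lyve1* in HSC cultures without auranofin replicate 2 (log2 fold change 0.0060, in a range of -0.091 to 0.0060 over the libraries left out) and for *Eng* in BMDM without auranofin replicate 1 (0.040, in a range of -0.73 to 0.040). The adjusted p of *Stab2* ran from 0.00559 to 0.0660 and that of *Clec4g* from 0.00457 to 0.0632 over all alternatives. Some of these fits took in fewer or more genes or libraries, and the cause of the shifts was not tested. Replicates share numbers, but no source says that a number marks a shared batch, and the deviations of same-numbered libraries correlated at 0.109 in HSCs and -0.06 in BMDM over genes. With the replicate block, 75 HSC genes passed the 1.5-fold rule and 282 by adjusted p, with 2 members and 11 other endothelial genes; in BMDM 1 gene passed by adjusted p. The block changed no member's call. Of the recomputed counts, 58 stayed within 1.5 times the reported one and 30 did not. Of the members' recomputed fold changes, 123 kept their direction and side of the threshold, 3 no longer passed, 2 newly passed and 2 reversed. With 2 libraries a group, small changes in members below 1 FPKM could not be assessed.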
